A study of Mus musculus with 6 samples.

Results

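The genes described here encode the proteasome, including the germ-cell subunit Psma8 of the spermatoproteasome and the activator Psme4. They were taken as the protein-coding genes whose GENCODE mouse M21 symbol starts with Psma, Psmb, Psmc, Psmd or Psme followed by a digit, without Psmc3ip, which is no proteasome subunit. The rule found 44 genes among the 51826 listed in the count files, and 42 of them passed the filter on low counts, among 21518 genes tested. Psmb11 and Psme2b did not pass, with 0 to 4 and 3 to 8 counts per library. The 31 subunits of the standard particle are called common subunits here, and Psma8 and Psme4 were compared with them.

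RNA of whole testes was counted in 3 wild-type and 3 KIFC1 knockout samples, all from C57BL/6J mice aged 8 weeks. KIFC1 is a minus-end directed kinesin motor, and the title of the series places it in meiotic recombination and male fertility. The labels describe neither the allele nor whether its loss is limited to a cell type. Since no label states 1 animal per sample, a p-value here covers the scatter among samples, and that scatter may be technical. Values are given as counts per 1000000 counts (CPM), scaled by TMM factors, in the order of samples 1, 2 and 3. A log2 fold change is knockout over wild type, with its standard error (SE), from edgeR's quasi-likelihood test on all 6 samples, and a gene is said to rise or fall where its Benjamini-Hochberg adjusted p over all tested genes is under 0.05. In whole testis, fewer cells of a type and less RNA per cell cannot be told apart.

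The libraries held 29274603 to 38703606 counts, and 0.393% to 0.587% of each were counts of proteasome genes. Kifc1 itself fell in knockout, with 15.5, 16.1 and 14.7 CPM in wild type and 0.326, 0.737 and 0.282 CPM in knockout (log2 fold change -5.09, SE 0.35, edgeR adjusted p = 0.00378). Knockout sample 2 stood apart from the other knockout samples: chi-square per degree of freedom over genes was 135 and 123 against them, while the value between them lay inside the range of the wild-type pairs, 15.4 to 50.3. Mitochondrial genes took 5.74%, 1.54% and 4.29% of the counts of knockout samples 1, 2 and 3 and 0.661% to 0.935% in wild type. Summed Sertoli cell markers ran from 746 to 1085 CPM in wild type and from 1059 to 1645 CPM in knockout (10 of 10 genes detected), those of Leydig cells from 623 to 1396 and from 1160 to 1761 CPM (8 of 8), and those of pachytene spermatocytes from 3445 to 4038 and from 3404 to 3829 CPM (10 of 10). Markers of spermatogonia (86.5 to 109 and 91.1 to 105 CPM, 7 of 7), of round spermatids (1546 to 1839 and 1506 to 2156 CPM, 10 of 10), of elongating spermatids (27373 to 29098 and 22174 to 34300 CPM, 10 of 10) and of macrophages and other immune cells (66.2 to 129 and 84.5 to 107 CPM, 10 of 10) also overlapped between the groups. Gene by gene, 8 of 10 Sertoli cell markers and 7 of 8 Leydig cell markers had positive log2 fold changes, with medians of 0.54 and 0.89. Among the macrophage and immune markers 5 of 10 did, and over all tested genes 49.3%. Of the germ-cell markers, 4 of 7 in spermatogonia, 4 of 10 in pachytene spermatocytes, 6 of 10 in round and 5 of 10 in elongating spermatids did. Of the somatic markers, 1 of Sertoli cells and 0 of Leydig cells rose, where 3.11% of all tested genes did. Within the elongating spermatid markers, genes moved both ways: Prm1 and Tnp2 fell (log2 fold changes -0.66 and -0.63, edgeR adjusted p = 0.0450 and 0.0451), Prm2 had -0.69 (adjusted p = 0.0539), and Smcp rose from 1549, 1934 and 1861 CPM to 7584, 2206 and 9260.4 CPM (log2 fold change 1.83, edgeR adjusted p = 0.0384). Among the pachytene markers, Sycp1 and Mybl1 rose (log2 fold changes 0.90 and 0.71, edgeR adjusted p = 0.0214 and 0.0280). Pou5f2 of the same list fell (-0.92, edgeR adjusted p = 0.0206). Spata25 of the round spermatid markers and Sohlh1 of the spermatogonial markers also fell (-1.58 and -1.14, edgeR adjusted p = 0.0166 and 0.0423). Over all tested genes, 3.11% rose and 5.12% fell. With GC content and exon length trends removed, a fit described below, no germ-cell marker was called. No marker was at 0 in all samples, and the part of any of these values in the results below was not tested. Exons of 13 of the 44 genes overlap another listed gene and 12 have a near-identical copy elsewhere, which makes their counts uncertain. Among the genes described below without further remark these are Psma4, Psma5, Psmb3, Psmb6, Psmb8, Psmb9, Psmc1, Psmd1, Psmd2, Psmd3, Psmd9, Psmd11 and Psme1, with an overlap or a copy. Psma8, Psme4 and Psmb4 have neither.

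The proteasome degrades proteins that carry ubiquitin chains. Its core particle is a stack of rings of alpha and beta subunits, with the proteolytic sites inside the beta rings, and its regulatory particle has a base of ATPases that unfold the substrate and a lid that removes ubiquitin. Male germ cells also make Psma8, which takes the place of Psma7 in the alpha ring from meiosis on, and they are rich in the activator Psme4 (PA200), which caps the core particle and is known for the degradation of acetylated histones in spermatids. Male mice without Psma8 are sterile.

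Promoter sequences are shown for Psmb4 and Psmb5, the subunit genes that fell, for Psmb6, which had the next largest negative log2 fold change in the common beta ring, and for Psme4. They come from the RefSeq promoter table on GRCm38.p6, which matched 37 of the 44 genes. The others were Psma8, Psmb1, Psmb2, Psmb7, Psmc3, Psmd3 and Psmd7. Each sequence runs 5′ to 3′ on the gene's strand from 250 bases before the RefSeq start to 10 bases after it. Capitals mark matches on either strand to TGACNNNGC, the antioxidant response element that NRF1 and NRF2 (genes Nfe2l1 and Nfe2l2) recognise, or to CGGAAG, the core of sites for ETS factors.
Psmb4, chr3:94886949-94887208, minus strand: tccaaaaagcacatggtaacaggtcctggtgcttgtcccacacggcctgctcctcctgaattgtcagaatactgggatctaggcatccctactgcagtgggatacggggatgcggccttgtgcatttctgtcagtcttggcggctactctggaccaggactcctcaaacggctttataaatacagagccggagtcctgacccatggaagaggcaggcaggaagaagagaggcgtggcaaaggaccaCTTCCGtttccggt
Psmb5, chr14:54617986-54618245, minus strand: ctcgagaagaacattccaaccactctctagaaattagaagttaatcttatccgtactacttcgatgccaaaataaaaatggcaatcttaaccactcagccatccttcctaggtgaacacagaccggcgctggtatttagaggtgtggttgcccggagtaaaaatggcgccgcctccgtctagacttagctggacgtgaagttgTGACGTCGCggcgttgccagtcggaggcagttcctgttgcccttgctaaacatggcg
Psmb6, chr11:70525107-70525366, plus strand: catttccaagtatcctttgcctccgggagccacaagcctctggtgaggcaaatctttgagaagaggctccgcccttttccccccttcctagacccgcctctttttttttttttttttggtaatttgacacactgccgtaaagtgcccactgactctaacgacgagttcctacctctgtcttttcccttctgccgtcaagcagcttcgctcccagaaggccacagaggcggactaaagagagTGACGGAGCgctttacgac
Psme4, chr11:30771525-30771784, plus strand: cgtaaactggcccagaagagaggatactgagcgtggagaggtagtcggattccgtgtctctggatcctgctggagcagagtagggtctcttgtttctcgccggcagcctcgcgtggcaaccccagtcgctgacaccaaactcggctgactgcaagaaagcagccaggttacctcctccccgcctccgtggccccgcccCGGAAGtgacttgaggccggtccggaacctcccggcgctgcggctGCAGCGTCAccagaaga
The antioxidant response element starts 47 bases before the start of Psmb5 and 9 bases before that of Psmb6. In Psme4 a match on the opposite strand begins 7 bases before the start. The ETS core lies across the start of Psmb4, on the opposite strand, and 52 bases before the start of Psme4.

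The same motifs were counted in the whole 300-base windows, from 250 bases before to 50 bases after the start, on both strands and with overlaps allowed. TGACNNNGC was found in 6 of the 37 genes (Psmb5, Psmb6, Psmc6, Psmd12, Psmd9 and Psme4) and in 13.99% of the 27025 genes in the table. CGGAAG was found in 20 of 37, Psmb4 and Psme4 among them, against 18.8% of all genes. The GC box GGGCGG was found in 22 of 37 against 38.2%, the CCAAT box (CCAAT) in 14 of 37 against 41.1%, and the MYB motif AACNGTT in 3 of 37 (Psmc2, Psmc5 and Psmd6) against 5.0%. These are matches of letters, and no binding was measured.

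In wild-type testis the transcripts of the common subunits differed widely in level, although the particle holds most of them in equal numbers. Per kilobase of merged exons, the common subunits ran from 6.78 CPM (Psmc6, an ATPase of the base) to 335 CPM (Psma6, of the alpha ring), with a median of 26.3 CPM. Within the alpha ring, Psma6 stood 41.4-fold above Psma7, the lowest. Part of that ratio comes from the lengths used, 1234 and 3071 bases of merged exons. Not divided by length, their wild-type means were 413 and 24.8 CPM. In the beta ring the range ran from Psmb3 at 15.3 CPM per kilobase to Psmb6, which carries the caspase-like site, at 124 CPM per kilobase. Among the ATPases, Psmc3 stood at 291 CPM per kilobase. The highest member of the lid was Psmd8 at 110.5 CPM per kilobase and the lowest Psmd11 at 9.17. In the rest of the base, Psmd2 stood at 135 and Psmd1 at 12.9 CPM per kilobase.

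Both germ-cell genes lay in the upper part of this order. Psme4 stood at 61.9, 64.2 and 65.0 CPM per kilobase in wild type and 69.0, 90.9 and 63.8 in knockout, the ninth of the 44 genes by wild-type mean and the fifth by knockout mean. Psma8 stood at 47.5, 42.9 and 34.0 CPM per kilobase in wild type and 34.9, 47.8 and 41.7 in knockout, and its wild-type mean of 41.5 lay above 21 of the 31 common subunits and above 6 of the 7 common alpha subunits. The neighbours of Psma8 in the order, Psmd4 at 58.6, 50.9 and 45.3 and Psmc1 at 44.8, 41.7 and 37.1, overlapped with it over the wild-type samples. Psma8 was 5.14-fold as abundant per length as Psma7 in wild type. With the longest transcript of each gene as its length that ratio was 3.29. The wild-type and knockout means of the 42 tested genes had a Spearman correlation of 0.96 across genes, which are not independent replicates and share these libraries.

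**Figure D1:**
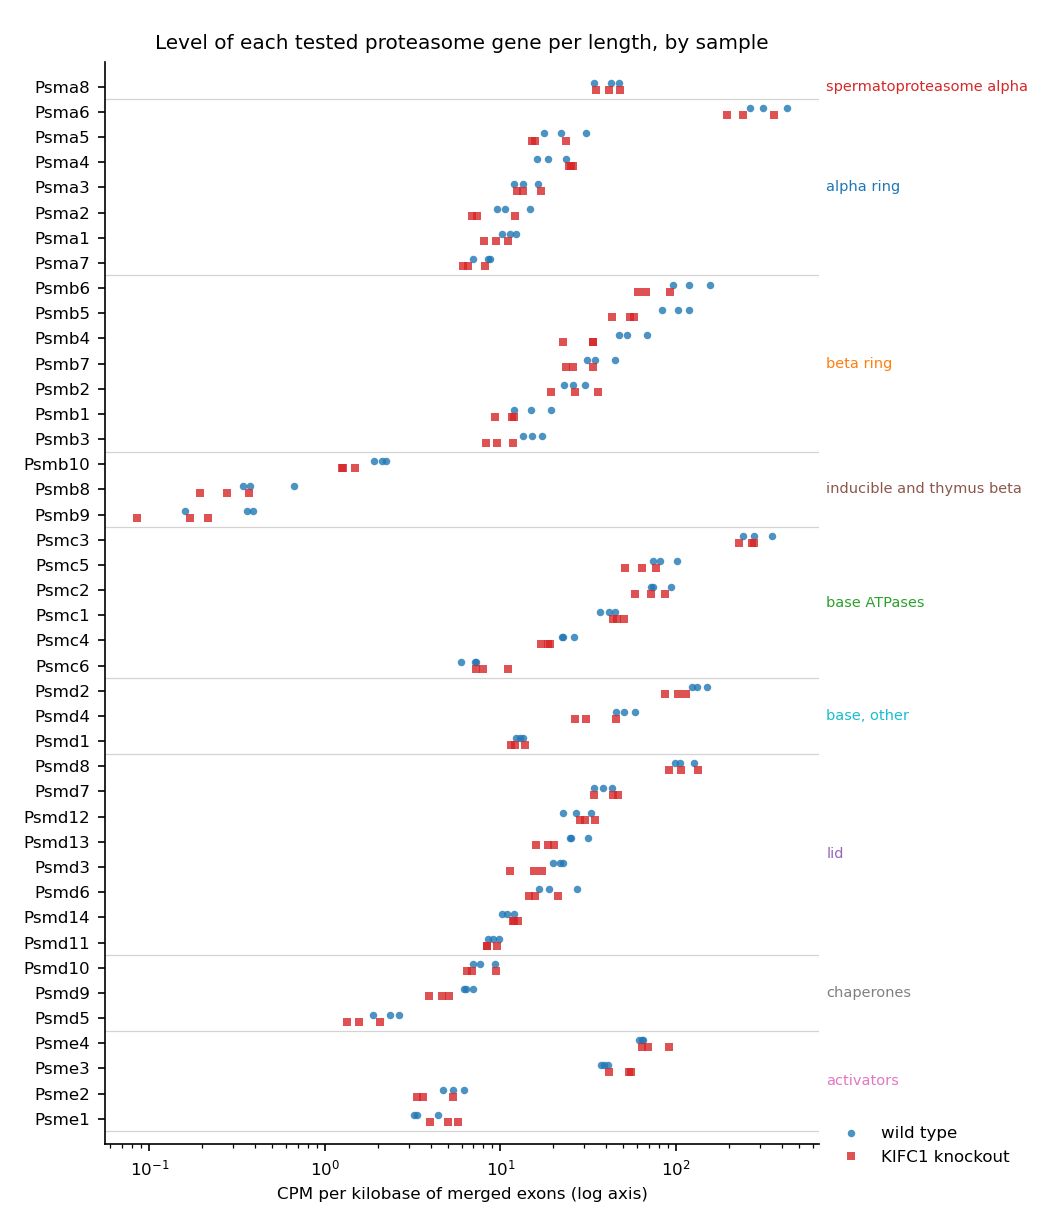
Level of each of the 42 tested proteasome genes in each sample, as CPM per kilobase of merged exons on a log axis, grouped by role and ordered by wild-type mean (blue circles, wild type; red squares, KIFC1 knockout). Wild-type means are 335 for Psma6, 291 for Psmc3, 41.5 for Psma8 and 8.07 for Psma7, and those of the inducible subunits Psmb8 and Psmb9 lie below 1.

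Proteasome genes mostly had lower values in knockout, and the lowest fold changes among the common subunits were those of Psmb5, Psmb4 and Psmb6 of the beta ring, but few passed the test. Of 42 tested genes, 2 fell, Psmb5 and Psmb4, where 5.12% of all tested genes fell. None rose (0 of 42), where 3.11% of all tested genes did, and in either direction 8.23% of all tested genes were called. The 2 of 42 that fell are 4.76%, close to the share over all tested genes. At an unadjusted p under 0.05, 12 of the 42 were lower, against 15.0% of all tested genes, and 1 was higher, against 12.1%. The groups did not overlap for 11 with knockout lower, against 18.1% of all tested genes, and for 3 with knockout higher, against 14.6%. The log2 fold change was negative for 30 of 42, against 50.7% of all tested genes. Its median was -0.31, where the median over all tested genes was -0.01. Among the 31 common subunits it was negative for 22, with a median of -0.28 and a range from -0.97 (Psmb5) to 0.37 (Psma4). By the DESeq2 Wald test 5 of the 42 were called, all lower (Psmb3, Psmb4, Psmb5, Psmb6 and Psmd13), against 14.7% of all genes in either direction.

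The beta ring holds the proteolytic sites, and its genes had a median log2 fold change of -0.63. Psmb5, which carries the chymotrypsin-like site and is the main target of proteasome inhibitors, fell (ENSMUSG00000022193, chromosome 14, 54614119 to 54618022, minus strand, mm10). Its values were 107, 92.2 and 74.8 CPM in wild type and 38.9, 49.4 and 51.7 CPM in knockout. Every knockout sample was below every wild-type sample, and the log2 fold change was -0.97 (SE 0.18, edgeR adjusted p = 0.0214). A processed pseudogene of Psmb5, Gm3375, is 98.9% identical over 796 bases and held 201 counts in all against 14355 for Psmb5, so the split of reads between them is uncertain. The exons of Psmb5 also share 109 bases, 12.1% of their length, with the microRNA gene Mir686 on the same strand, which held 6 counts in all. Psmb4, a subunit without proteolytic activity, also fell (ENSMUSG00000005779, chromosome 3, 94884093 to 94886961, minus strand). Its values were 133, 103 and 92.6 CPM in wild type and 44.2, 65.5 and 65.8 CPM in knockout, again without overlap (log2 fold change -0.90, SE 0.21, edgeR adjusted p = 0.0347). Both calls were lost with the trends of GC content and exon length removed and without any of wild-type samples 1 and 2 and knockout samples 1 and 3, with edgeR adjusted p from 0.0554 to 0.105 for Psmb5 and from 0.0722 to 0.132 for Psmb4. Without wild-type sample 3 Psmb5 still passed (0.0467) and Psmb4 did not (0.0596). Calls over all tested genes went from 1770 with all samples to 27 with the trends removed. Without 1 of these samples they ran from 1 to 425.

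The other beta subunits did not pass the test. Psmb6 had 293, 223 and 181 CPM in wild type and 113, 126 and 174 CPM in knockout, with no overlap (log2 fold change -0.75, edgeR adjusted p = 0.0706). For Psmb3, a subunit without proteolytic activity, the values were 39.5, 34.9 and 31.02 and 19.1, 27.0 and 21.9 CPM, also with no overlap (log2 fold change -0.63, edgeR adjusted p = 0.0684). Psmb1 had a log2 fold change of -0.49 with groups that came close without overlap, and Psmb7, which carries the trypsin-like site, had -0.42 with groups that overlapped. Psmb7 shares 405 bases of exon with Nek6 on the opposite strand, which makes its level uncertain. Psmb2 alone in this ring had a positive value, 0.06 (SE 0.23), with 32.2, 23.3 and 43.5 CPM in the knockout samples around 36.3, 31.1 and 27.6 CPM in wild type. In all, 5 of the 7 beta genes had groups that did not overlap, all lower in knockout, where 18.1% of all tested genes were lower with no overlap. No test of the ring against the other subunits was made.

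**Figure D2:**
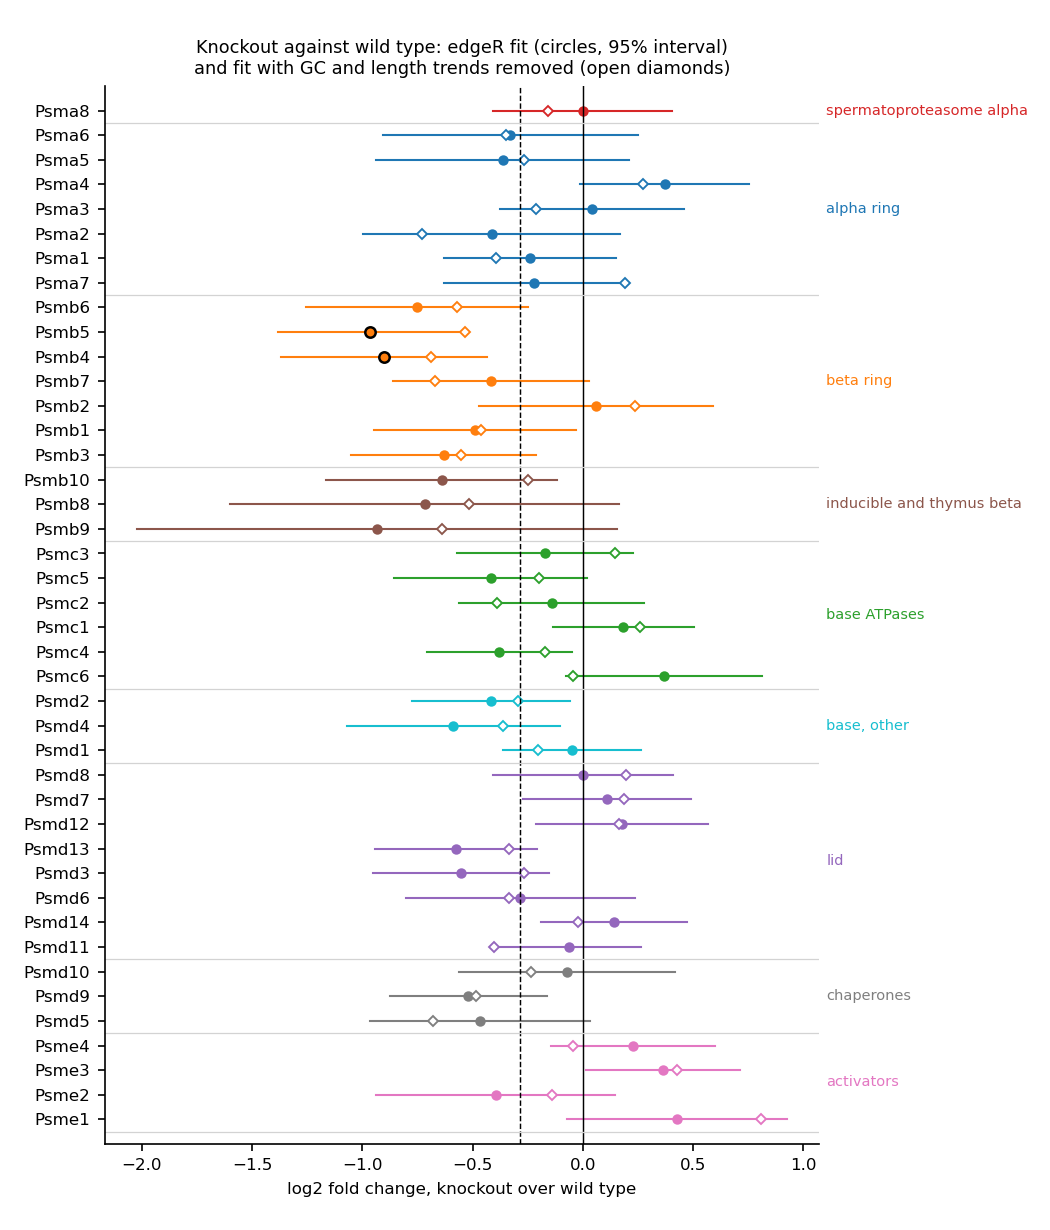
Log2 fold change of each tested gene, knockout over wild type, by role (filled circles, edgeR fit with 95% interval, black rims for an adjusted p under 0.05; open diamonds, the fit with GC and exon length trends removed). The dashed line is the median of the 31 common subunits, -0.28, and only Psmb5 and Psmb4 have black rims.

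No gene of the alpha ring, which forms the gate of the core particle, passed the test (0 of 7 in either direction, median log2 fold change -0.24). Over all tested genes 8.23% were called. In so small a group, here and in the role groups below, 0 calls cannot be told from that share. The smallest p was that of Psma4, 56.2, 44.2 and 38.5 CPM in wild type and 58.5, 61.0 and 60.1 CPM in knockout, where every knockout sample was above every wild-type sample (log2 fold change 0.37, edgeR adjusted p = 0.199). Psma2 had 54.3, 39.2 and 35.2 and 25.2, 44.5 and 27.0 CPM, with groups that overlapped through knockout sample 2 (log2 fold change -0.41, edgeR adjusted p = 0.337). Psma6, the most abundant, overlapped in the same way, at 526, 385 and 327 and 240.3, 446 and 299 CPM. Psma1, Psma3 and Psma5 had log2 fold changes of -0.24, 0.04 and -0.36. Psma3 has a pseudogene, Gm13835, with 370 counts in all and an identical stretch of 665 bases, and its level is uncertain.

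The base of the regulatory particle gave no call either (0 of 9, against 8.23% of all tested genes). Among its ATPases (median log2 fold change -0.16), Psmc4 had 56.7, 48.8 and 49.2 CPM in wild type and 41.6, 40.4 and 36.9 CPM in knockout, with no overlap (log2 fold change -0.38, edgeR adjusted p = 0.134). Psmc5 had a log2 fold change of -0.42 and Psmc6 one of 0.37, and for Psmc6 every knockout sample was above every wild-type sample. Psmc3, the most abundant ATPase, had -0.17, but shares 215 bases of exon with Slc39a13 on the opposite strand and is uncertain. Psmc1 and Psmc2 had 0.18 and -0.14. The ubiquitin receptor Psmd4 had 165, 143 and 127 CPM in wild type and 74.9, 128 and 86.4 CPM in knockout. Knockout samples 1 and 3 were far below wild type and sample 2 lay just inside its range (log2 fold change -0.59, edgeR adjusted p = 0.118). The scaffolds Psmd2 and Psmd1 had -0.42, without overlap, and -0.05, with overlap.

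The lid split evenly, with 4 of 8 genes negative, 4 positive, a median log2 fold change of -0.03 and 0 calls. Over all tested genes, 8.23% were called. Psmd13 had 107, 83.7 and 85.5 CPM in wild type and 53.9, 68.6 and 62.7 CPM in knockout, with no overlap (log2 fold change -0.57, edgeR adjusted p = 0.0622, DESeq2 adjusted p = 0.0420). It shares 342 bases of exon with Sirt3 on the opposite strand and is uncertain. Psmd3 had 109, 112 and 99.5 and 77.3, 56.3 and 85.2 CPM, also without overlap (log2 fold change -0.55, edgeR adjusted p = 0.0865). The deubiquitinase of the lid, Psmd14, had a log2 fold change of 0.14, and its structural partner Psmd7 one of 0.11. Psmd8, the most abundant lid gene, had 0.00 (SE 0.18), and Psmd6, Psmd11 and Psmd12 had -0.28, -0.06 and 0.18. Of the chaperones that assemble the base, Psmd9 had 46.0, 50.6 and 45.2 CPM in wild type and 28.4, 36.7 and 33.8 CPM in knockout, with no overlap (log2 fold change -0.52, edgeR adjusted p = 0.0745). Psmd5 and Psmd10 had -0.47 and -0.07, and 0 of these 3 genes passed the test, against 8.23% of all tested genes.

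The inducible beta subunits, which replace their standard counterparts in cells exposed to interferon, were scarce in these testes. Psmb10, the counterpart of Psmb7, had 3.23, 3.61 and 3.81 CPM in wild type and 2.17, 2.13 and 2.53 CPM in knockout. The groups did not overlap (log2 fold change -0.64, edgeR adjusted p = 0.116). Psmb8, the counterpart of Psmb5, had 1.26, 2.26 and 1.15 and 1.25, 0.936 and 0.657 CPM, and Psmb9, the counterpart of Psmb6, 0.587, 1.43 and 1.31 and 0.625, 0.794 and 0.313 CPM. Both overlapped between the groups, with log2 fold changes of -0.72 and -0.93 and edgeR adjusted p values of 0.272 and 0.249. Per kilobase, the wild-type means of Psmb10, Psmb8 and Psmb9 were 2.08, 0.461 and 0.303 CPM, against 37.0, 101 and 124 for their counterparts. Psmb11, the thymus subunit, held 0 to 4 counts per library, around the 3 counts that cannot be told from a count of 0.

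Psma8, the germ-cell alpha subunit, did not pass the test, and its fold change was close to 1. It had 119, 107 and 84.8 CPM in wild type and 87.0, 119 and 104 CPM in knockout (ENSMUSG00000036743, chromosome 18, 14706151 to 14762301, plus strand), and the groups overlapped almost fully. The log2 fold change was -0.00 (SE 0.18, 95% interval -0.41 to 0.41, edgeR adjusted p = 0.999), so the fold that these samples allow runs from 0.754 to 1.32. Psma7, the subunit whose place it takes, had 26.8, 26.2 and 21.4 CPM in wild type and 18.8, 24.9 and 20.1 CPM in knockout (log2 fold change -0.22, SE 0.18, edgeR adjusted p = 0.465). Within each sample, log2 CPM of Psma8 minus that of Psma7 was 2.14, 2.03 and 1.99 in wild type and 2.21, 2.26 and 2.37 in knockout. Every knockout sample was higher, by 0.23 on average, with a two-sided exact permutation p of 0.1, the smallest that 3 samples against 3 can give. The sign of this difference turned to -0.33 (exact permutation p = 0.2) once the trends of counts with GC content and exon length were taken out of each library, and the groups then overlapped. The transcript of Psma7 has a GC content of 57.4% and that of Psma8 one of 43.2%.

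Beside the common subunits, the fold change of Psma8 lay 0.28 above their median, with 9 of the 31 above it and 22 below. Relative to the median of the common subunits in the same sample, Psma8 stood at 0.41, 0.41 and 0.24 on the log2 scale in wild type and at 0.69, 0.86 and 0.73 in knockout. All knockout samples were above all wild-type samples on this scale. With the trends removed the values were 0.45, 0.58 and 0.48 in wild type and 0.57, 0.57 and 0.66 in knockout, which overlap, and the distance of the fold change from the common median was 0.11. No p is given, since the median is a score over the genes chosen here.

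Psme4 did not pass the test either, and its values were nearly the same in wild type. They were 519, 538 and 545 CPM in wild type and 578, 762 and 535 CPM in knockout (ENSMUSG00000040850, chromosome 11, 30771726 to 30880361, plus strand). Knockout sample 2 was far above the rest and sample 3 lay inside the wild-type range (log2 fold change 0.23, SE 0.16, 95% interval -0.14 to 0.60, edgeR adjusted p = 0.408). Without knockout sample 2 the log2 fold change was 0.06. Its fold change lay 0.51 above the median of the common subunits, with 2 of the 31 above it. Within samples, Psme4 stood 2.54, 2.74 and 2.92 above the common median on the log2 scale in wild type and 3.42, 3.54 and 3.09 in knockout, without overlap. With the trends removed those groups overlapped, and the distance of the fold change from the common median was 0.23.

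Psme3, the nuclear activator PA28 gamma, had 121, 115 and 111 CPM in wild type and 159.6, 122 and 165 CPM in knockout. Each knockout sample was above each wild-type sample, sample 2 only just (log2 fold change 0.36, SE 0.15, edgeR adjusted p = 0.169). It was the only tested proteasome gene with a higher value in knockout at an unadjusted p under 0.05 (0.0427). The difference Psme4 minus Psme3 in log2 CPM was 2.10, 2.23 and 2.30 in wild type and 1.86, 2.64 and 1.70 in knockout, a mean difference of -0.14 (exact permutation p = 0.7) with knockout sample 2 above and samples 1 and 3 below the wild-type range. The mean difference was 0.039 without knockout sample 3, -0.43 without knockout sample 2 (exact permutation p = 0.1, the smallest possible with these samples) and -0.47 with the GC and exon length trends described below removed (exact permutation p = 0.4). Psme1 and Psme2, which form the interferon-inducible cap, had 7.07, 9.75 and 7.43 and 10.9, 9.42 and 8.31 CPM in wild type and 8.80, 12.7 and 11.1 and 5.87, 9.50 and 6.38 CPM in knockout. Their log2 fold changes were 0.42 and -0.40, neither past the test. Psme2 and Psme2b are 99.4% identical over 794 bases, and their counts are uncertain.

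**Figure D3:**
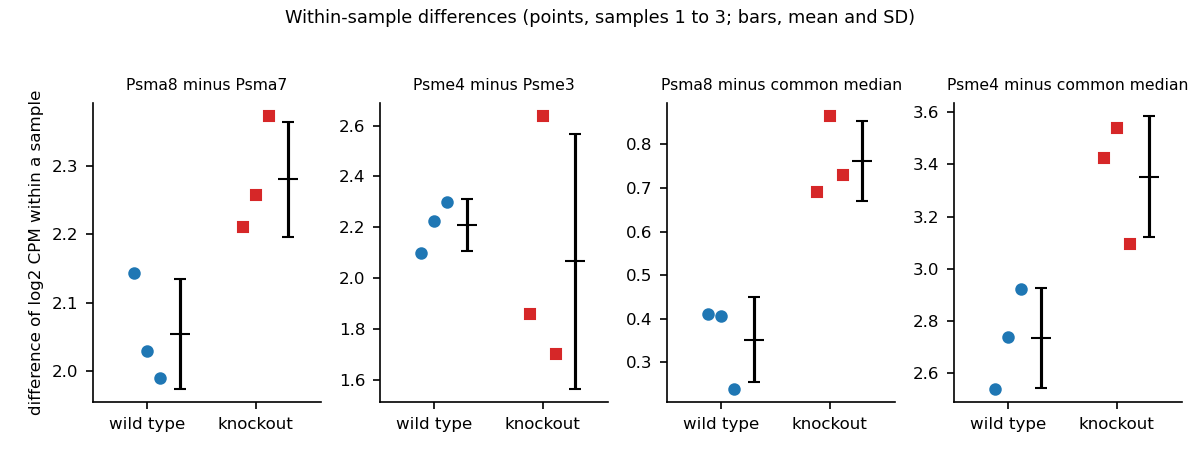
Differences of log2 CPM within each sample, for Psma8 minus Psma7, Psme4 minus Psme3, and Psma8 or Psme4 minus the median of the 31 common subunits (blue circles, wild type; red squares, knockout; bars, mean and SD of 3 samples; each panel has its own axis, none from 0). All knockout points lie above all wild-type points except for Psme4 minus Psme3, where knockout sample 2 lies at 2.64 and the others at 1.86 and 1.70.

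Samples of a group differed in how far all subunits moved together. The median deviation of the common subunits from their wild-type means, on the log2 scale, was 0.22, -0.03 and -0.19 in wild type and -0.46, -0.05 and -0.32 in knockout. Knockout samples 1 and 3 were below all wild-type samples, and knockout sample 2 lay among them. The beta ring was low in every knockout sample, at -0.87, -0.44 and -0.50 against 0.30, -0.02 and -0.23 in wild type. So were the base scaffolds and ubiquitin receptor, at -0.64, -0.17 and -0.39 against 0.16, -0.01 and -0.13, the regulatory particle chaperones, at -0.53, -0.14 and -0.48 against 0.22, 0.04 and -0.06, and the inducible beta genes, at -0.71, -0.67 and -1.18 against -0.24, 0.47 and 0.11. The scaffold and receptor, chaperone and inducible groups are medians of 3 tested genes each. In each of them only 1 gene was lower in knockout without overlap, where 18.1% of all tested genes were. The median of the 4 tested activators was above wild type in every knockout sample, at 0.13, 0.30 and 0.24 against 0.01, 0.00 and -0.08. These genes did not move together, and only 1, Psme3, was above wild type in every knockout sample. Psme2 stood at -0.69, 0.00 and -0.57 in knockout, and Psme4 at 0.12, 0.51 and 0.00. The alpha ring was low in knockout samples 1 and 3 only, at -0.47, 0.08 and -0.30 against 0.30, -0.05 and -0.25, and the lid was low in none of them, at -0.08, -0.05 and -0.01 against 0.19, -0.04 and -0.13. The base ATPases were low in knockout sample 1 only, at -0.32, 0.04 and -0.11 against 0.19, -0.05 and -0.16.

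**Figure D4:**
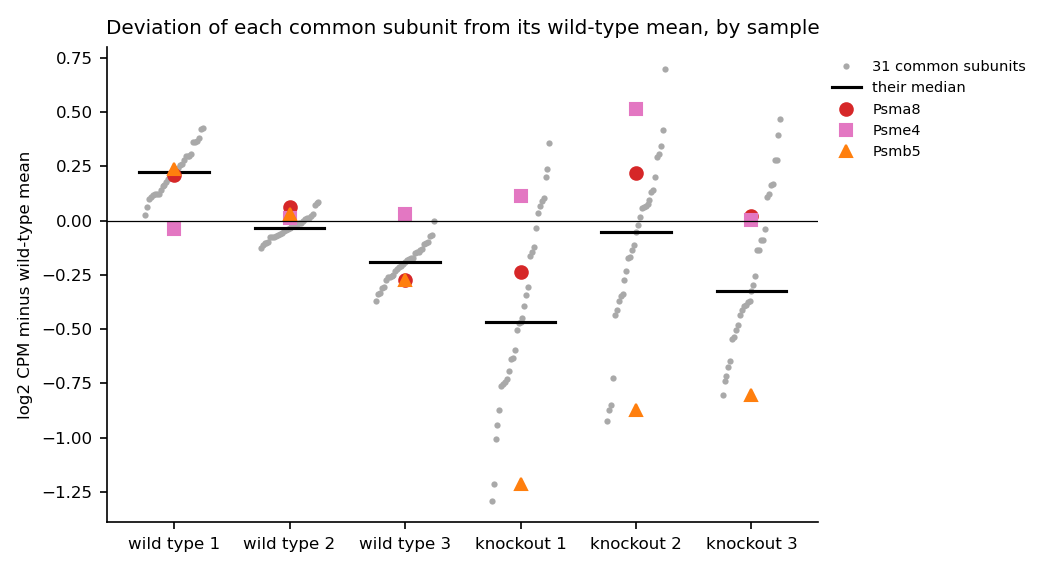
Deviation of log2 CPM from the wild-type mean in each sample, for the 31 common subunits (grey points sorted within a sample, black bar for their median) and for Psma8, Psme4 and Psmb5. The medians of knockout samples 1 and 3 lie at -0.46 and -0.32 and that of sample 2 at -0.05, while Psmb5 is low in all 3.

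Without knockout sample 2, 6 proteasome genes fell (Psmb3, Psmb4, Psmb5, Psmd4, Psmd9 and Psmd13), where 7.69% of all tested genes did, and Psme3 rose, where 6.62% did. The log2 fold changes were then -1.01 for Psmb5, -0.99 for Psmb4, -0.84 for Psmd4 (edgeR adjusted p = 0.0163) and 0.49 for Psme3 (edgeR adjusted p = 0.0330). Leaving out any other sample left 0 calls, or 1 without wild-type sample 3. Over all tested genes, calls numbered 5, 1 and 425 without wild-type samples 1, 2 and 3. They numbered 1 and 327 without knockout samples 1 and 3, against 1770 with all samples. Without knockout sample 2 and with the trends removed, 9 genes fell (Psma2, Psma6, Psmb3, Psmb4, Psmb5, Psmb7, Psmd4, Psmd5 and Psmd9), against 6.26% of all tested genes. Psme3 rose in that fit (log2 fold change 0.54, edgeR adjusted p = 0.0193), against 7.05%. Psma8 passed in neither fit, at -0.12 and -0.22.

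The libraries differed in how their counts went with GC content, and the fold changes of these genes also went with it. The rank correlation of a library with GC content was 0.24, 0.52 and 0.53 in wild type and -0.26, -0.67 and -0.12 in knockout. Its sign thus went with genotype in all 6 libraries. Removing the trends may also remove differences between genotypes, and the 2 cannot be told apart here. Over the 42 tested genes the log2 fold change had a Spearman correlation of -0.44 with the GC content of the longest transcript, and over 12751 genes with a mean log2 CPM above 2 it was -0.51. These are correlations across genes, which share the 6 libraries. Psma8 (43.2%) and Psme4 (43.9%) have a lower GC content than the median common subunit (49.5%), and Psmb5 (56.6%) a higher one. With those trends and the ones with exon length taken out of each library, the correlation was 0.12 over the 42 genes, and none of them was called, where 0.125% of all tested genes were. The median log2 fold change of the 42 was then -0.26, with 32 of 42 negative, and that of the beta ring -0.55, with 6 of 7 negative. Over all tested genes 48.6% were negative in this fit. Psmb5 had -0.54 (SE 0.15, edgeR adjusted p = 0.0989), Psmb4 -0.69 (adjusted p = 0.0863) and Psmb7 -0.67, whose adjusted p of 0.0772 was the lowest of the 42. Psma8 and Psme4 had -0.16 and -0.04. At an unadjusted p under 0.05, 10 were lower and 2 higher in this fit, Psme3 (0.43) and Psme1 (0.81), where 10.7% of all tested genes were lower and 11.6% higher.

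**Figure D5:**
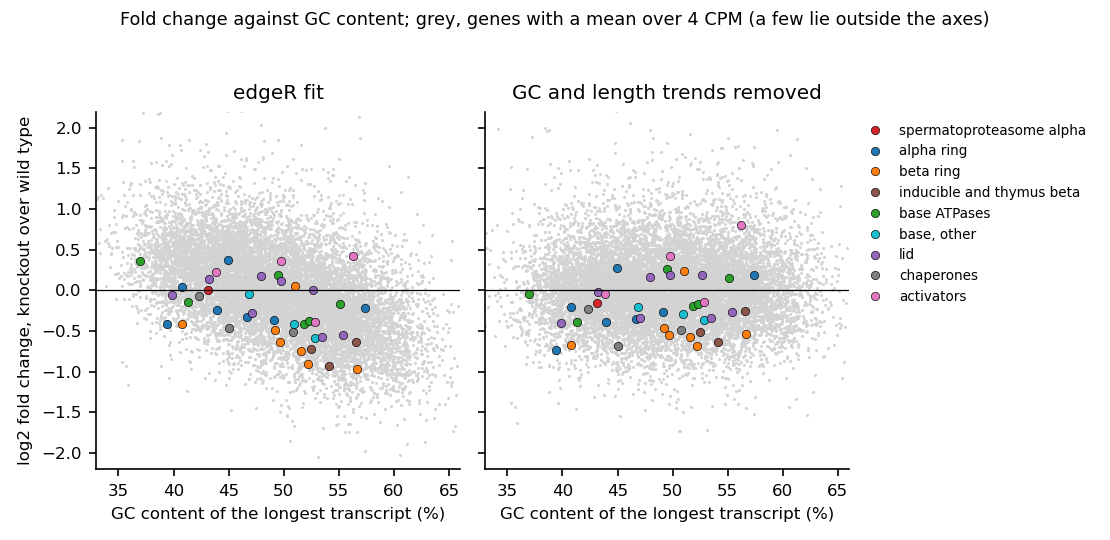
Log2 fold change against the GC content of the longest transcript, in the edgeR fit (left) and with GC and exon length trends removed (right), for the 42 tested proteasome genes by role over all genes with a mean above 4 CPM (grey). On the left the proteasome genes fall along the grey cloud with a Spearman correlation of -0.44, and on the right it is 0.12, with a beta ring median of -0.55 and none of the 42 genes called.

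Genes that work with the proteasome were listed by role, with earlier results of these data known. Over all tested genes, 8.23% were called in either direction. Of 15 tested assembly factors and bound companions, 0 rose and 1 fell, where 3.11% of all tested genes rose and 5.12% fell. This was Psmg3, a chaperone of core particle assembly, with 5.37, 6.23 and 4.54 CPM in wild type and 1.90, 2.78 and 2.97 CPM in knockout and no overlap (log2 fold change -1.08, SE 0.26, edgeR adjusted p = 0.0398). Of 18 genes for ubiquitin, its activating enzymes and the shuttles that bring substrates, 0 rose. Nploc4, a cofactor of the unfoldase VCP, fell from 293, 287 and 286 CPM to 201, 199 and 194 CPM (log2 fold change -0.54, edgeR adjusted p = 0.0347), a narrow spread in both groups.

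No factor that regulates subunit genes passed the test (0 of 10, against 8.23% of all tested genes). The smallest p values were those of Nfe2l2, which encodes NRF2, with 12.8, 20.7 and 17.0 CPM in wild type and 32.6, 24.4 and 23.6 CPM in knockout and no overlap (log2 fold change 0.68, edgeR adjusted p = 0.0927), and of its partner Mafk (log2 fold change -0.49, edgeR adjusted p = 0.121). Antigen processing genes gave 0 calls of 10, against the same 8.23%. Tapbp, a chaperone of peptide loading, and the class I gene H2-K1 had the smallest p, with log2 fold changes of -0.47 and -0.50 and no overlap between the groups. Of 17 ubiquitin enzymes known in germ cells, 2 rose and 0 fell, against the same 3.11% and 5.12%. The cullin scaffold Cul4b rose from 62.8, 75.7 and 69.3 CPM to 150.3, 130.3 and 158 CPM (log2 fold change 1.08, SE 0.15, edgeR adjusted p = 0.0161), and Cul3, which works with the spermatid adaptor KLHL10, rose from 230.1, 248 and 262 CPM to 386, 388 and 345 CPM (log2 fold change 0.59, edgeR adjusted p = 0.0337). With the trends removed none of these list genes was called, and without knockout sample 2 there were 2 calls among the companions and 4 among the germ-cell enzymes, where 7.69% of all tested genes were called lower and 6.62% higher. Leaving out any other sample gave 0 calls in both lists, except 1 among the germ-cell enzymes without wild-type sample 3 or knockout sample 3. Nploc4 was still called without knockout sample 2 (edgeR adjusted p = 0.0215), and its adjusted p ran from 0.0917 to 0.151 with any other sample left out. In the fit with trends taken out, the values for Cul4b, Cul3, Psmg3 and Nploc4 were 0.84, 0.25, -0.98 and -0.33 on the log2 scale.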

How the data were processed

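RNA libraries of whole testis were used, 3 of wild type and 3 of KIFC1 knockout, grouped by the genotype label. The values deposited by the authors are raw gene counts without normalization, with 1 file for each sample. The submitters' processing notes name Trimmomatic, HISAT2, HTSeq and the build mm10. Not given in the sources used here are tool versions, annotation release, strand setting and the handling of multimapping reads, so overlapping genes and near-identical copies are uncertain. Symbols, exon lengths and GC content came from GENCODE M21 (GRCm38).

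All 51826 genes entered edgeR 4.0.16 (R 4.3.3): TMM scaling, filterByExpr, quasi-likelihood test, two-sided, Benjamini-Hochberg adjustment over 21518 genes, threshold 0.05. The SE is the absolute log2 fold change over the square root of F. Log2 CPM values for the GC content and exon length trends used a prior count of 2. The within-sample differences and the deviations from wild-type means used none. Library totals of 29274603 to 38703606 counts make 3 counts equal to 0.0775 to 0.102 CPM, a floor for counting error only. In a fit with offsets, splines with 5 degrees of freedom in GC content and log exon length, fitted over 12732 genes above a mean log2 CPM of 2, were removed from each library. The fitting code was tested on simulated data. Alternatives were other scalings and filters, DESeq2 1.42.0, the offsets, a replicate block, and each sample left out.

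The genes and all lists were chosen with earlier results of these data known. Named with values were Psma8, Psma7, Psme4, Psme3, called genes, per role the 2 smallest p and the highest and lowest level, all inducible subunits, and per pathway list the called genes or the 2 smallest p. Any other gene was named with its values in view. Overlaps and near copies (at least 95% identical over 200 bases) were looked up for the proteasome genes only. Paaf1 was not matched. A called gene of the ubiquitin and shuttle list is not reported here.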

Additional observations from a re-analysis of the deposited data

How the results depend on the processing

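With a single library left out, with or without the offsets, proteasome calls ran from 0 to 10, common subunits called from 0 to 7 and all genes called from 0 to 3149. The highest counts came without knockout sample 2. Of 839 single-gene alternatives, 741 kept their direction and their side of the threshold, 18 passed it newly, 26 no longer passed and 54 turned sign. The causes were not tested.

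Scaling by library size alone gave 4 calls among the proteasome genes, all of them common subunits, no expression filter gave 1 and 1 (1010 over all genes), and the DESeq2 Wald test gave 5 and 5 (3165). With the GC content and exon length offsets there were 0 and 0 (27). Psmd8 was at -0.032 with library size alone. Psma8 was at 0.023 with DESeq2 size factors and the DESeq2 test, 0.0036 without a filter, 0.010 with at least 1 CPM in 3 samples and 0.013 without mitochondrial genes.

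The offsets turned Psme4 (-0.043), Psma3 (-0.21), Psma7 (0.19), Psmc3 (0.15), Psmc6 (-0.044), Psmd14 (-0.024) and Psma8 minus Psma7 (-0.33). They moved Psma8 and Psme4 beside the common subunits to 0.11 and 0.23. The per-length ratio of Psma8 to Psma7 was 3.29 on the longest transcript.

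Correlations of the deviations of same-numbered samples were -0.47, -0.12 and -0.14. With 3 samples in each group, these cannot settle whether the samples were paired. With the replicate number as a block, 0 proteasome genes, 0 common subunits and 21 genes in all were called, Psma8 was at 0.0021 and Psmd8 at -0.0095. With the block and the offsets these counts were 0, 0 and 7, with Psme4 at -0.056, Psma3 at -0.21, Psma7 at 0.17, Psmc3 at 0.15, Psmc6 at -0.049, Psmd14 at -0.024, Psma8 minus Psma7 at -0.33, and Psma8 and Psme4 beside the common subunits at 0.12 and 0.22.

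Over the fits that leave out a sample, Kifc1 ran from -5.65 to -4.39, Psma8 from -0.24 to 0.13, Psme4 from -0.20 to 0.34, Psma8 minus Psma7 from -0.48 to 0.27, Psme4 minus Psme3 from -0.73 to 0.039, and Psma8 and Psme4 beside the common subunits from 0.021 to 0.38 and from 0.12 to 0.65. Kifc1 missed the threshold only with the offsets and without wild-type sample 2 (edgeR adjusted p = 0.0817) or knockout sample 3 (0.0648). Other genes that turned sign were Psma3 (-0.29 to 0.20), Psma7 (-0.35 to 0.31), Psmb2 (-0.17 to 0.43), Psmc2 (-0.48 to 0.012), Psmc3 (-0.29 to 0.31), Psmc6 (-0.15 to 0.50), Psmd1 (-0.29 to 0.0055), Psmd8 (-0.14 to 0.30), Psmd10 (-0.34 to 0.076), Psmd11 (-0.47 to 0.015) and Psmd14 (-0.036 to 0.23).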
